A study of Mus musculus with 8 samples.

Results

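The response of the medial prefrontal cortex (mPFC) to social defeat was described over all genes, from the 2 mPFC libraries of socially defeated mice set against the 2 of home-cage mice, 4 of the 8 libraries of the series. Libraries were taken by their treatment labels, and 18027 of the 33885 gene symbols had enough counts to be tested. Every mouse was a male adult of the inbred strain C57Bl6J, and the titles of the mPFC libraries call them WT. Defeated mice met an aggressive male of the CD1 strain, and the mPFC was dissected 15 min after the experience. Home-cage mice received no stimulation, so attack, handling and new surroundings cannot be told apart in these data. The other 4 libraries came from the nucleus accumbens (NAc) after place-preference conditioning with cocaine at 7.5 mg/kg or from the home cage. The labels name total RNA libraries and do not say whether the 2 libraries of a group came from separate mice, so each p-value measures only the spread between these libraries.

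The 4 mPFC libraries were deep and much alike. They held between 111901829 and 140624648 counts, and their log2 levels correlated with r between 0.9980 and 0.9989 over genes. Every pair differed by more than counting noise, with a chi-square per degree of freedom between 22.7 and 48.6. The libraries did not group by treatment in their median absolute log2 difference. It was 0.0971 between the home-cage libraries and 0.0791 between the defeat libraries. Home-cage replicate 1 differed from defeat replicates 1 and 2 by 0.0814 and 0.0732, and home-cage replicate 2 by 0.0904 and 0.103. Of the cortical glutamatergic neuron markers, 20 of 20 found in the table were expressed above the test's minimum, with summed levels, in counts scaled to a common library size (CPM), of 7040 and 7310 in the home cage and 7020 and 6640 after defeat. None of the 20 passed the test between the groups, and neither did any of 20 interneuron, 16 astrocyte or 16 oligodendrocyte markers. A total of 9 markers of other cell types were listed at 0 in all 4 libraries, among them P2ry12 and Itgam of microglia, and 8 of the 9 overlap another annotated gene. In tissue samples of this kind, a lower level from fewer cells of a type and from less RNA per cell cannot be told apart.

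Neurons and vessel cells answer strong stimulation in waves of transcription. Signalling through calcium, cyclic AMP and MAP kinases switches on immediate early genes without new protein synthesis, through factors such as CREB and SRF that already sit at their promoters. Many of the first products are transcription factors, and others close the response again: phosphatases that silence MAP kinases, proteins that destroy short-lived mRNAs, and kinases that shut off CREB coactivators. In the prefrontal cortex such genes are widely used as markers of neurons engaged by stress or social contact.

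The only microRNA genes higher after defeat were the neighbours Mir212 and Mir132, which lie 204 bases apart on the forward strand of chromosome 11 and are known targets of CREB. Their mature sequences, from RefSeq on GRCm38.p6 and written 5′ to 3′ with the seed (bases 2 to 8, which pair with target mRNAs) in capitals, are shown because the 3p arms of both share 1 seed and so are predicted to reach overlapping targets.
mmu-miR-212-3p: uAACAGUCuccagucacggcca
mmu-miR-132-3p: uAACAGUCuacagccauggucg
mmu-miR-212-5p: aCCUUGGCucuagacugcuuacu
mmu-miR-132-5p: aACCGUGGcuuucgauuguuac
Both 3p arms carry the seed AACAGUC, whereas the 5p arms carry CCUUGGC and ACCGUGG. The 3p arm of miR-212 lies at chr11:75173443-75173464 and that of miR-132 at chr11:75173723-75173744. Mir212 was at 2.14 and 2.69 CPM in the home-cage libraries and at 9.47 and 9.02 CPM in the defeat libraries, and Mir132 was at 0.405 and 0.46 against 1.75 and 1.29 CPM. The groups did not overlap for either gene. These reads cannot be divided between precursor and mature RNA, and both genes overlap the same longer annotated transcript, 1700016P03Rik. Of 83 tested genes of microRNA type, 2 were higher and 2 lower, with a median log2 fold change of -0.06. The 2 lower ones, Gm25911 and Gm24245, named after their values were seen, rested on few reads. Gm25911 had 19 and 20 counts in the home cage against 2 and 0 after defeat, and Gm24245 had 22 and 18 against 6 and 4. In NAc both were lowest in cocaine replicate 1, as was the ribosomal RNA locus described below.

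The promoters of the rising genes were compared with those of all tested genes. RefSeq promoter windows, from 250 bases before to 50 bases after a gene's start on GRCm38.p6, were matched for 75 of the 99 genes called higher and for 13290 tested genes. The upstream stretches of 4 of the genes are printed with a match in capitals, 5′ to 3′ on the gene's own strand: the cyclic AMP response element TGACGTCA, bound by CREB, for Btg2, Dusp1 and Arl4d, and a CArG box, bound by SRF, for Egr2.
Btg2: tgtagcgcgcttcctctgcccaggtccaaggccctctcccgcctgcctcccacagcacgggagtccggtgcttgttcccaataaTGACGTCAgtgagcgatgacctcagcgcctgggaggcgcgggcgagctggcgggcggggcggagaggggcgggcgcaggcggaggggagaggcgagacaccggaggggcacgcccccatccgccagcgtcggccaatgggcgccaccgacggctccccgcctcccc
Dusp1: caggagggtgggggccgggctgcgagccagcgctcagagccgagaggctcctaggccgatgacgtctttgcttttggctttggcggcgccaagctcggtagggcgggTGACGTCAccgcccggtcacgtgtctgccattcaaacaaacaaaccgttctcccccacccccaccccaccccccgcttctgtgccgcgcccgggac
Arl4d: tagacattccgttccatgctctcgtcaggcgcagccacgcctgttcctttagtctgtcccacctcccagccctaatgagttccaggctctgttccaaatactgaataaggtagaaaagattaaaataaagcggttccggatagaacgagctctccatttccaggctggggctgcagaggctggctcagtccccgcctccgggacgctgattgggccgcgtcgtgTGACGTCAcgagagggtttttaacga
Egr2: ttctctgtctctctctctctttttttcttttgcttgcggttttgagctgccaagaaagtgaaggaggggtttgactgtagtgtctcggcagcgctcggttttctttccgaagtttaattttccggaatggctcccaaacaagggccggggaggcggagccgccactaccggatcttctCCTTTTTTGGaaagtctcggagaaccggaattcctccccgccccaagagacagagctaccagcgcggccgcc
The stretches are chr1:134079156-134079405 on the reverse strand for Btg2, chr17:26508520-26508722 on the reverse strand for Dusp1, chr11:101665291-101665540 on the forward strand for Arl4d and chr10:67537316-67537565 on the forward strand for Egr2, for which it is 1 of 5 windows. The match began at position -166 for Btg2, -143 for Dusp1, -26 for Arl4d and -72 for Egr2, counted from the gene's start. Searched on both strands, TGACGTCA occurred in 6 of the 75 promoters (8.0%, exact 95% interval 2.99 to 16.6) and in 3.11% of those of all tested genes. Besides the 3 printed, it stood in the promoters of Pcsk1, Arl5b and Btaf1. The shorter TGACG, which every TGACGTCA contains, was found in 56.0% of the 75 (interval 44.1 to 67.5) against 31.0%. CArG boxes were in 5.33% (Egr2, Zfp36, Dusp5 and Arid3b) against 1.65%, GCGGGGGCG, an Egr motif, in 14.7% against 5.60%, and TATAAA in 15 of the 75 against 10.5%. The AP-1 motif TGANTCA was in 5.33% against 6.82%. A match is a run of letters and not a measured binding site, no test was made on these shares, and they describe genes picked by this same comparison.

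After defeat 99 genes were higher and 28 lower in edgeR's quasi-likelihood test, at a Benjamini-Hochberg adjusted p under 0.05 over all tested genes, which is 0.549% and 0.155% of the 18027 genes and 0.704% in all. By size, 29 rose and 10 fell by more than 2-fold, 35 rose by between 0.5 and 1 on the log2 scale, and 35 rose by less than 0.5. For all 99 higher genes both defeat libraries lay above both home-cage libraries, against 16.6% of all tested genes, and for 27 of the 28 lower genes both lay below, against 17.4%. The called genes were picked by a test on these same libraries, which nearly fixes this separation, so it adds no support to the calls. Protein-coding genes made up 93 of the 99 and 15 of the 28, against 15757 of the 18027 tested genes. Provisional gene models made up 5 and 13. A total of 63 gene lists covered transcription, signalling, synapse, stress, metabolism and cell types: 65 of the 99 higher genes stood on at least 1 list, and 2 of the 28 lower ones did. Lists of transcription regulators, on which Zfp36 and Tiparp also stood, held 21 of the higher genes and lists of signalling proteins 15. The shares of all tested genes on these lists or among provisional models are not given here. These counts therefore describe the called genes and show no excess. The DESeq2 Wald test also called 83 of the 99 and 7 of the 28, and 47 of the 99 and 7 of the 28 passed in each of 4 fits that left out 1 library. Without defeat replicate 2 the test lost 50 of the 99 higher calls, against 26 without defeat replicate 1, 14 without home-cage replicate 1 and 13 without home-cage replicate 2. Defeat replicate 2 was the higher of the defeat libraries in 72 of the 99 genes (72.7%), and in 48.5% of all tested genes.

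**Figure D1:**
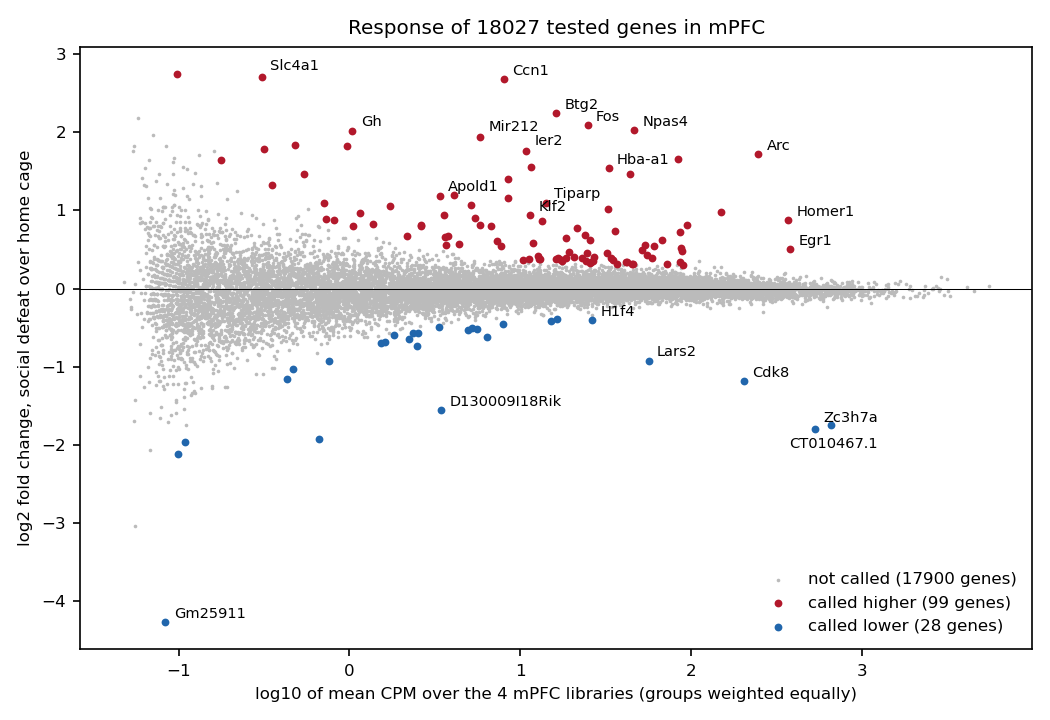
Log2 fold change after social defeat (y) against the log10 of the mean CPM (x) for 18027 genes in mPFC, 1 point per gene. The 99 genes called higher (red) stand at scarce to abundant levels and reach 2.74 on the log2 scale at a scarce gene. The abundant Arc, Homer1 and Egr1 rose by 1.72, 0.875 and 0.508. The abundant genes called lower (blue) are few: Zc3h7a, CT010467.1, Cdk8 and Lars2.

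**Figure D2:**
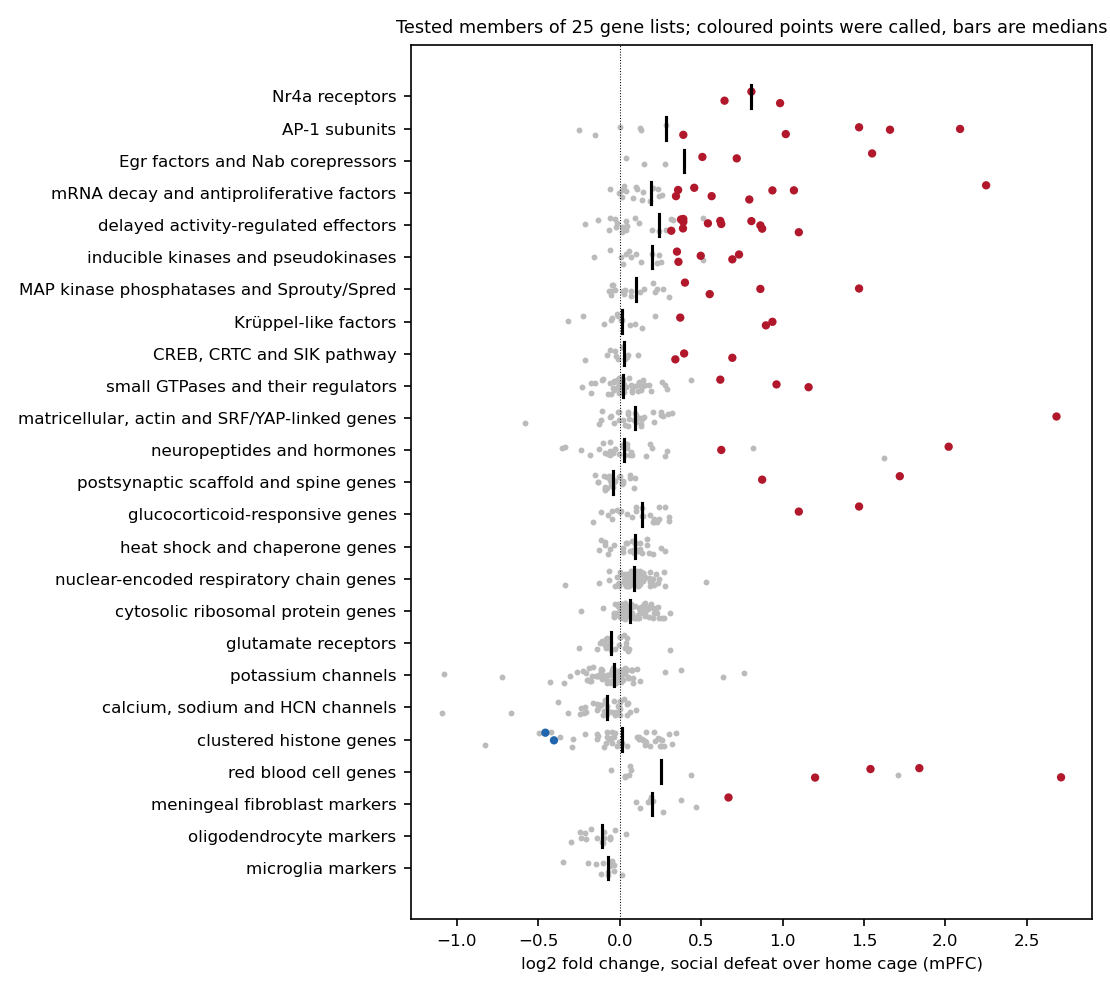
Log2 fold change (x) of the tested members of 25 gene lists (y), 1 point per gene, coloured where the gene was called and with the median as a bar. Nr4a receptors have 3 of 3 members called and a median of 0.81, whereas ion channel and receptor lists sit near 0.

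Several families of inducible transcription factors had called members. Among AP-1 subunits, which pair into the factor named for Fos and Jun, 5 of 11 rose (Fos, Junb, Atf3, Fosb and Fosl2), with a median log2 fold change of 0.28 against -0.00 over all tested genes. Junb was at 35.4 and 45.1 CPM in the home cage and at 128 and 126 CPM after defeat. Atf3, a stress-induced subunit, was at 0.28 and 0.298 CPM against 0.661 and 0.931 CPM, 2.76-fold higher (log2 SE 0.256, edgeR adjusted p = 0.000115), and lost its call without defeat replicate 2 (adjusted p = 0.11). Jun and Jund, chosen after their values were seen, had log2 fold changes of 0.12 (SE 0.0774) and 0.00 (SE 0.0817) and did not pass. Jun stood at 44.9 and 47.9 CPM against 50.8 and 50.3 CPM. Fosl2 rose 1.31-fold, and its adjusted p was 0.0602 and 0.115 without defeat replicate 1 and 2.

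Egr zinc finger factors rose in 3 of 6 members of a list that also holds their Nab corepressors (median 0.39). Egr2 was at 5.23 and 6.52 CPM in the home cage and 17.2 and 17.2 CPM after defeat, 2.93-fold higher (log2 SE 0.0991, edgeR adjusted p = 1.83e-19). Egr4 was at 60.2 and 70.1 against 112 and 102 CPM, 1.65-fold higher (log2 SE 0.0795), and Egr1 was at 316 and 315 against 452 and 446 CPM, 1.42-fold higher (log2 SE 0.0801). The groups were apart for all 3, and each call held without any 1 library. Egr3 (209 and 229 against 242 and 245 CPM) and Nab2 (28.0 and 33.3 against 37.8 and 36.5 CPM), named after their values were seen, had groups that did not overlap but did not pass (adjusted p = 0.735 and 0.123).

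All 3 Nr4a genes rose. These orphan nuclear receptors act without a known hormone and are switched on by calcium and cyclic AMP. Nr4a1 was at 98.1 and 103 CPM in the home cage and 194 and 204 CPM after defeat, 1.98-fold higher (log2 SE 0.0766). Nr4a3 was at 67.9 and 70.2 against 117 and 125 CPM, 1.75-fold higher (log2 SE 0.0766). Nr4a2 was at 15.2 and 13.7 against 21.3 and 23.8 CPM, 1.56-fold higher (log2 SE 0.0874). In each case the groups were clearly apart, and the 3 calls held in all 4 fits without 1 library.

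Krüppel-like factors, a zinc finger family with roles in vessel wall and differentiation, split into 3 that rose and 13 that did not pass (median 0.01). Klf2 (chr8:72319033-72321656), an endothelial factor induced by blood flow, was at 7.76 and 7.87 CPM in the home cage and 13.0 and 16.9 CPM after defeat, 1.92-fold higher (log2 SE 0.0999, edgeR adjusted p = 1.91e-10). Klf4 (chr4:55527143-55532466) was at 3.73 and 3.87 against 6.02 and 8.12 CPM, 1.86-fold higher (log2 SE 0.118, edgeR adjusted p = 1.14e-07). For both genes the home-cage libraries nearly coincided and defeat replicate 2 was the higher. Klf10 was at 28.4 and 32.4 against 38.7 and 39.8 CPM, 1.29-fold higher. Its call was lost without home-cage replicate 1, defeat replicate 1 or defeat replicate 2 (adjusted p = 0.0689, 0.0827 and 0.356). The abundant Klf9, Klf12 and Klf13, named after their values were seen, had log2 fold changes of 0.14, -0.01 and -0.04 and did not pass.

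Among 58 other inducible transcription regulators, 6 rose: Npas4, Ier2, Tiparp, Arid5a, Crem and Fosl2. Ier2, a nuclear early response protein, was at 4.62 and 5.29 CPM in the home cage and 16.2 and 17.3 CPM after defeat. Tiparp (chr3:65528410-65555518), an ADP-ribosyltransferase that restrains the aryl hydrocarbon receptor, was at 9.89 and 8.11 against 18 and 20.7 CPM. Arid5a, which binds DNA and stabilises some mRNAs, was at 8.37 and 10.7 against 14.5 and 14 CPM, 1.5-fold higher (log2 SE 0.0971, edgeR adjusted p = 3.98e-05). These 3 kept their call without any 1 library.

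**Figure D3:**
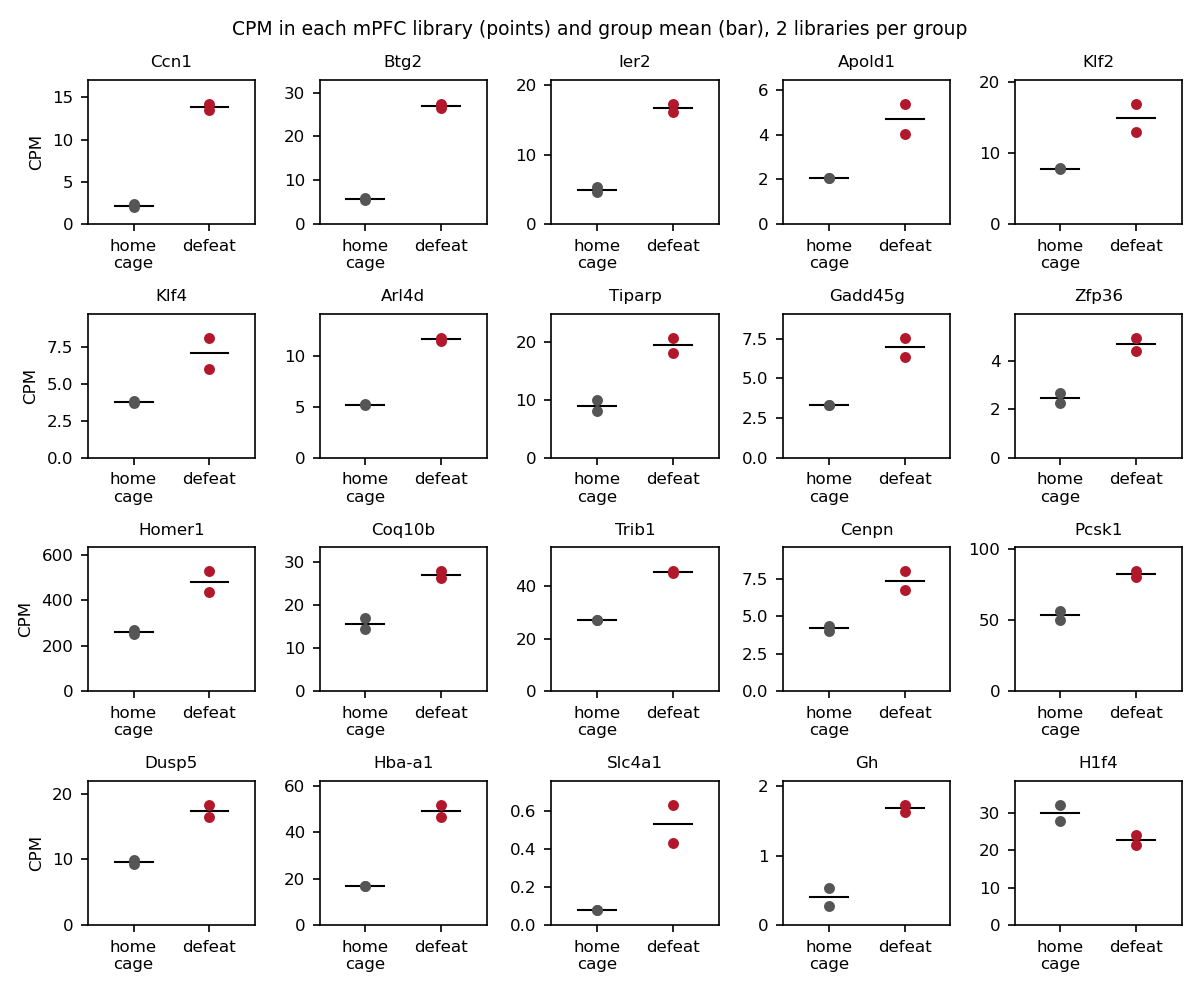
CPM of 20 genes in each mPFC library (points) with the mean of each group of 2 (bar), on axes that start at 0. In the 19 genes called higher both defeat points lie above both home-cage points, and H1f4 shows the opposite order, at 28.0 and 32.2 against 24.0 and 21.5 CPM.

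Brakes on MAP kinase signalling rose in 4 of 22 members of their list (median 0.10). Dusp1, a nuclear phosphatase of several MAP kinases, was at 23.8 and 22.6 CPM in the home cage and 61.2 and 67.5 CPM after defeat. Dusp5 (chr19:53529109-53542431), a nuclear phosphatase of ERK, was at 9.24 and 9.86 against 16.4 and 18.3 CPM, and Dusp6, its cytoplasmic counterpart, at 41.8 and 45.9 against 64.7 and 63.9 CPM, 1.47-fold higher (log2 SE 0.0776, edgeR adjusted p = 6.95e-07). Spry4, an inhibitor of receptor tyrosine kinase signalling, was at 17.9 and 17.8 against 23.4 and 23.7 CPM. The groups were apart for all 4, but Spry4 lost its call without defeat replicate 1 or 2 (adjusted p = 0.0701 and 0.231). Of the kinases themselves, 1 of 33 MAP kinases and upstream kinases rose, where 0.549% of all tested genes were called higher. It was Map3k14, the NF-kB-inducing kinase, at 11 and 11.7 against 13.7 and 15.8 CPM. It did not pass without home-cage replicate 1 or defeat replicate 2 (adjusted p = 0.0571 and 1).

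Inducible kinases and pseudokinases rose in 5 of 19 members (Trib1, Sik1, Stk40, Plk3 and Pim3), and 17 of the 19 were positive, with a median of 0.20. Trib1 (chr15:59648350-59657099), a pseudokinase that brings targets to the COP1 ubiquitin ligase, was at 27.2 and 27.2 CPM in the home cage and 44.8 and 45.6 CPM after defeat, 1.66-fold higher (log2 SE 0.0792, edgeR adjusted p = 2.94e-10). Sik1, a salt-inducible kinase that holds CRTC coactivators of CREB in the cytoplasm, was at 17.3 and 19.4 against 27.9 and 31.4 CPM, 1.62-fold higher (log2 SE 0.085). Stk40, another pseudokinase, was at 43.7 and 42.7 against 58.0 and 64.1 CPM, 1.41-fold higher (log2 SE 0.078). These 3 passed in every fit without 1 library. Plk3 and Pim3, both 1.28-fold higher, passed in 1 of the 4: Plk3 lost its call without home-cage replicate 1, defeat replicate 1 or defeat replicate 2 (adjusted p = 0.0829, 0.273 and 0.356), and Pim3 without home-cage replicate 2, defeat replicate 1 or defeat replicate 2 (adjusted p = 0.058, 0.403 and 0.328).

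Within the CREB, CRTC and SIK pathway as listed, Sik1, Crem and Sik2 rose (3 of 14, median 0.03). Crem, whose short products repress CREB targets, was at 14.9 and 14 CPM in the home cage and 18.1 and 19.9 CPM after defeat, 1.32-fold higher. Sik2 was at 75.1 and 77.6 against 89.9 and 104 CPM, 1.27-fold higher. Both lost their call without defeat replicate 2 (adjusted p = 0.661 for Crem and 1 for Sik2). Creb1, Crtc1 and Crebbp, named after their values were seen, had log2 fold changes of 0.11, -0.08 and -0.01.

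Genes that destroy mRNA or hold back cell division rose in 8 of 24 tested members. A total of 22 of the 24 were positive, with a median of 0.19, against 48.9% positive and a median of -0.00 over all tested genes. Btg2, a partner of the CCR4-NOT deadenylase that shortens poly(A) tails, was at 5.87 and 5.45 CPM in the home cage and 26.5 and 27.4 CPM after defeat. Its relatives Btg3 (3.76 and 3.34 against 5.0 and 5.52 CPM, 1.48-fold) and Tob1 (38.0 and 35.9 against 48.6 and 45.3 CPM, 1.27-fold) also rose. Zfp36, which binds AU-rich elements and speeds the decay of immediate early and cytokine mRNAs, was at 2.25 and 2.66 against 4.41 and 4.97 CPM, 1.92-fold higher (log2 SE 0.126, edgeR adjusted p = 2.19e-07). Its family members Zfp36l2 (19.0 and 22.7 against 30.6 and 26.7 CPM) and Zfp36l1 (23.7 and 23.0 against 29.9 and 30.0 CPM) rose 1.37-fold and 1.28-fold. On the list of zinc finger protein (Zfp) genes, with 332 tested, Zfp36 and 1 other rose. That is near the 0.549% of all tested genes that were called higher. The other was Zfp948 (14.7 and 13.5 against 17.6 and 19.1 CPM, 1.3-fold), which lost its call in 3 of the 4 fits without 1 library. The stress sensors Gadd45g and Gadd45b, which bind MAP3 kinases, completed the group. Gadd45g (chr13:51846678-51848468) was at 3.31 and 3.32 against 7.57 and 6.33 CPM, 2.09-fold higher (log2 SE 0.115), and Gadd45b was at 4.37 and 5.49 against 8.68 and 8.39 CPM, 1.74-fold higher (log2 SE 0.108). The core deadenylase genes Cnot1 and Cnot8, named after their values were seen, had log2 fold changes of -0.00 and 0.01. The calls of Btg3 (adjusted p = 0.28), Zfp36l1 (0.347) and Tob1 (0.115) were lost without defeat replicate 2, and those of Zfp36l2 (0.218), Zfp36l1 (0.189) and Tob1 (0.511) without defeat replicate 1.

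Small GTPases rose in 3 of 51 members of the list (median 0.02), where 0.549% of all tested genes were called higher. Arl4d (chr11:101665541-101667832), an ARF-like GTPase at the plasma membrane, was at 5.26 and 5.17 CPM in the home cage and 11.5 and 11.8 CPM after defeat, 2.24-fold higher (log2 SE 0.1, edgeR adjusted p = 8.75e-14). Gem, a GTPase that binds calcium channel beta subunits, was at 0.677 and 0.893 against 1.5 and 1.54 CPM, 1.95-fold higher (log2 SE 0.184, edgeR adjusted p = 0.000617). Arl5b, an ARF-like GTPase of the Golgi, was at 22.6 and 17.9 against 29.4 and 32.8 CPM, 1.53-fold higher (log2 SE 0.088). A further GTPase, Rheb, which activates mTOR complex 1 and stood on the list of delayed effectors, was at 51.8 and 47.5 against 72.8 and 71.7 CPM, 1.46-fold higher (log2 SE 0.0771, edgeR adjusted p = 9.96e-07). All 4 passed in each fit without 1 library.

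Of 30 postsynaptic scaffold and spine genes 2 rose, Arc and Homer1, where 0.549% of all tested genes were called higher. The median of the list was -0.04. Arc, which drives the uptake of AMPA receptors, was at 104 and 128 CPM in the home cage and 354 and 407 CPM after defeat. Homer1 (chr13:93299635-93405129), a scaffold of metabotropic glutamate receptors with an inducible short form, was at 271 and 254 against 435 and 528 CPM, 1.83-fold higher (log2 SE 0.0849, edgeR adjusted p = 7.9e-12). The counts do not separate its short and long forms. No member passed among 37 synaptic vesicle and release genes (median -0.02), 25 glutamate receptors (-0.05) and 16 GABA receptors (0.02). With 0.704% of all tested genes called, lists of this size would mostly hold no call.

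The ion channel lists held no called member, where 0.704% of all tested genes were called. Of 86 potassium channel genes 57 were negative and for 20 both defeat libraries lay below both home-cage libraries, with a median of -0.04; for all tested genes that share was 17.4%. Of 41 calcium, sodium and HCN channel genes 31 were negative, 12 had groups apart in that direction, and the median was -0.08. The smallest p among potassium channels belonged to Kcnj10, the inward rectifier of astrocytes, at 138 and 129 CPM against 112 and 116 CPM (edgeR adjusted p = 0.243). Of 41 monoamine, acetylcholine and adenosine receptors 1 rose, the muscarinic receptor gene Chrm4, at 21.5 and 24.7 against 29.1 and 29.5 CPM (1.27-fold). Its call was lost without home-cage replicate 1, defeat replicate 1 or defeat replicate 2 (adjusted p = 0.162, 0.213 and 0.492). The orphan receptor gene Gpr19, at 17.0 and 15.1 against 20.4 and 21.6 CPM, rose 1.31-fold and lost its call without home-cage replicate 2 or defeat replicate 2 (adjusted p = 0.0802 and 0.477). Gprc5a passed with 10 and 11 counts against 30 and 43, and in none of the 4 fits without 1 library (adjusted p from 0.0613 to 0.887) or in DESeq2 (adjusted p = 0.692).

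The lists of neuropeptides, hormones and growth factors, which hold only a part of the secreted proteins, gave 3 calls. Over all tested genes, 0.549% were called higher. Pcsk1 (chr13:75089826-75134861), the convertase that cuts prohormones and neuropeptide precursors in secretory granules, was at 56.8 and 50 CPM in the home cage and 80.3 and 84.5 CPM after defeat, 1.54-fold higher (log2 SE 0.0782, edgeR adjusted p = 3.06e-08). Bdnf, a neurotrophin of activity-dependent plasticity, was at 28.7 and 30.0 against 38.7 and 38.3 CPM, 1.31-fold higher (log2 SE 0.0793, edgeR adjusted p = 0.00179). It was the only 1 of 49 neurotrophins and growth factors to pass, and lost its call without defeat replicate 1 or 2 (adjusted p = 0.0987 and 0.123). Growth hormone, Gh, was at 0.53 and 0.279 against 1.73 and 1.63 CPM. Among 7 tested genes typical of the anterior pituitary, Gh was the only one to pass. Prl, the prolactin gene, named after its values were seen, was at 0.0221 and 0.0721 against 0.122 and 0.156 CPM and did not pass (edgeR adjusted p = 0.261). Tshb and Lhb were listed at 0, but Tshb overlaps Tspan2 and Lhb overlaps Ruvbl2, so a 0 need not mean absence. Whether pituitary RNA had a part in the Gh value was not tested.

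Genes listed as delayed effectors of neuronal activity rose in 12 of 33 members (median 0.24), where 0.549% of all tested genes were called higher. Besides Tiparp, Homer1, Dusp5, Nr4a3, Pcsk1, Arl5b, Rheb, Bdnf, Fosl2 and Gpr19 they were Ptgs2 and Fbxo33. Tiparp, Dusp5 and Nr4a3 also stood on the lists of other inducible regulators, MAP kinase phosphatases and Nr4a receptors. The count therefore does not show a wave later than the first. Ptgs2, the inducible cyclooxygenase, was at 14.7 and 14.7 CPM in the home cage and 21.4 and 16.9 CPM after defeat, and without defeat replicate 1 its log2 fold change was 0.20 (adjusted p = 1). DESeq2 did not call it either (adjusted p = 0.101). Fbxo33, an F-box adaptor of ubiquitin ligases, was at 42.7 and 38.4 against 50.7 and 50.2 CPM, 1.25-fold higher, and lost its call without home-cage replicate 2, defeat replicate 1 or defeat replicate 2 (adjusted p = 0.225, 0.393 and 0.496). Other members of the list did not pass. Among them, Vgf was at 343 and 426 against 402 and 374 CPM, Nptx2 at 45.2 and 51.7 against 48.3 and 44.4 CPM, and Scg2 at 106 and 133 against 118 and 112 CPM. All 3 were named after their values were seen and had overlapping groups.

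Stress gene lists, 15 min after the experience, are set beside the 0.549% of all tested genes that were called higher. Glucocorticoid-responsive genes had 2 of 27 members called, Dusp1 and Tiparp, which also stood on other lists. The part of glucocorticoids in these values was not tested. The median of the list was 0.14, 21 of 27 were positive, and 15 of 27 had both defeat libraries above both home-cage libraries, against 16.6% of all tested genes. The classic steroid targets Fkbp5 (22.0 and 21.4 against 23.9 and 23.9 CPM), Tsc22d3 (34.8 and 34.8 against 34.4 and 35.4 CPM) and Sgk1 (67.8 and 61.7 against 66.3 and 72.8 CPM), named after their values were seen, did not pass. Per1, a clock gene and steroid target, was at 130 and 140 against 164 and 163 CPM and missed the threshold in edgeR (adjusted p = 0.061) but passed in DESeq2 (adjusted p = 0.0107). No member passed in edgeR among 30 heat shock and chaperone genes (median 0.09), 27 genes of the unfolded protein response (0.05), 25 interferon-stimulated genes (0.08) and 9 genes of the CRF system and corticosteroid receptors (0.09). The chaperone gene with the smallest p, Dnajb5, was at 117 and 129 against 145 and 153 CPM and passed in DESeq2 but not in edgeR (adjusted p = 0.0346 and 0.0702). Of the 30, 23 were positive and 13 had groups apart in that direction, and the home-cage libraries differed from each other by a median of 0.09 in this list. Of 17 oxidative stress and metal response genes, Mt3, a brain metallothionein, rose 1.24-fold (75.6 and 85.5 against 104 and 95 CPM), and lost its call without home-cage replicate 1, defeat replicate 1 or defeat replicate 2 (adjusted p = 0.227, 0.842 and 0.177).

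The housekeeping lists showed small differences without any member passing. Of 79 nuclear-encoded respiratory chain genes 70 were positive, against 48.9% of all tested genes, 45 had both defeat libraries above both home-cage libraries, against 16.6%, and the median log2 fold change was 0.09. Of 80 cytosolic ribosomal protein genes 67 were positive, 26 had groups apart in that direction, and the median was 0.07. With upper-quartile scaling, which lowers the median of all tested genes from -0.003 to -0.028, the medians were 0.06 and 0.04. Between the defeat libraries these lists differed by medians of -0.07 and -0.12 (replicate 2 minus replicate 1), and between the home-cage libraries by 0.01 and 0.06. Oligodendrocyte markers had the opposite sign, with 15 of 16 negative and a median of -0.11, but the home-cage libraries differed by -0.26 in that list. Of 12 tested microglia markers 11 were negative and 6 had both defeat libraries below both home-cage libraries, against 17.4% of all tested genes, with a median of -0.07. Their summed level was 252 and 249 CPM in the home cage and 242 and 229 CPM after defeat, 0 of the 12 passed, and Trem2, the one with the smallest p, was at 6.68 and 7.26 against 5.68 and 5.26 CPM (edgeR adjusted p = 0.146).

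A total of 34 of the rising genes stood on no list, and the 12 with the smallest p among those that are not provisional models are described here. Ovca2, a serine hydrolase gene on the reverse strand 2195 bases from Mir132, was at 4.89 and 4.47 CPM in the home cage and 12.5 and 12.2 CPM after defeat. Ovca2 overlaps Dph1 and 1700016P03Rik, the longer transcript that Mir212 and Mir132 also overlap. Reads shared with these transcripts cannot be told apart. Apold1 (chr6:134981718-134986836), an early response gene of vascular endothelium, was at 2.05 and 2.06 against 4.03 and 5.37 CPM, 2.28-fold higher (log2 SE 0.133, edgeR adjusted p = 7.97e-10). Coq10b, a mitochondrial coenzyme Q-binding protein gene, was at 17.0 and 14.5 against 26.3 and 27.9 CPM, 1.72-fold higher (log2 SE 0.0862). The groups did not overlap in any of these, and they passed in each fit without 1 library. Cenpn, a centromere protein gene, was at 4.02 and 4.37 against 6.75 and 8.0 CPM, 1.76-fold higher (log2 SE 0.111). Bnc2, a zinc finger gene that spans 400181 bases and so is the longest of the rising genes, was at 1.72 and 2.11 against 3.20 and 3.50 CPM, 1.75-fold higher (log2 SE 0.138). Gch1, the rate-limiting enzyme of tetrahydrobiopterin, the cofactor for making monoamines and nitric oxide, was at 1.07 and 1.16 against 1.72 and 2.91 CPM, 2.08-fold higher, but lost its call without defeat replicate 2 (adjusted p = 0.467). The remaining 6 rose by 1.35-fold to 1.52-fold. They were Frmd6, an upstream member of the Hippo pathway (73.6 and 70.3 against 95.6 and 111 CPM), Btaf1, an ATPase that moves the TATA-binding protein (74.6 and 74.6 against 95.7 and 112 CPM), Ifrd1, a transcriptional coregulator (28.9 and 25.5 against 37.1 and 37.6 CPM), Arid3b (16.2 and 16.1 against 20.9 and 24.0 CPM), the splicing regulator Hnrnpll (51.3 and 43.4 against 63.3 and 64.3 CPM) and the matrix protein gene Aebp1 (5.54 and 6.06 against 7.41 and 10.2 CPM). Ifrd1 alone of these 6 passed in every fit without 1 library, and the other 5 lost their call without defeat replicate 2, with adjusted p from 0.0511 for Hnrnpll to 0.824 for Aebp1.

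Matricellular and SRF- or YAP-linked genes gave 1 call in 34, where 0.549% of all tested genes were called higher. It was Ccn1, at 2.35 and 1.97 CPM in the home cage and 14.2 and 13.5 CPM after defeat. The rest of the list had a highest log2 fold change of 0.32. A provisional model on the opposite strand, Gm17501, lies 331 bases from Ccn1 and rose 1.74-fold (2.0 and 1.83 against 3.37 and 3.29 CPM). Other called neighbours were Fam180a and Slc13a4, 4537 bases apart, and Chrm4 and Mdk, 1117 bases apart, while Btg3 and Cxadr overlap on opposite strands. The provisional models Gm20594 (0.14 and 0.144 against 0.365 and 0.611 CPM) and Gm30122 (1.64 and 1.73 against 2.45 and 2.91 CPM) rose too, and both lost their call without defeat replicate 2 (adjusted p = 0.433 and 0.517) and with DESeq2 (adjusted p = 0.0799 and 0.0837). Fam180a, Mdk and Cxadr were named after their values were seen. In all, 34 of the 99 rising genes overlap another annotated gene and 27 an antisense one. The share over all tested genes was not counted. Whether the counting kept strands apart is not given in the sources used here, so reads of such pairs cannot be told apart.

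Red blood cell genes rose in 4 of 12 tested members (median 0.25). Of the 12, 11 were positive and 8 had both defeat libraries above both home-cage libraries, against 16.6% of all tested genes. Hba-a1 was at 16.7 and 17.0 CPM in the home cage and 51.8 and 46.4 CPM after defeat, the near-identical Hba-a2 at 0.206 and 0.216 against 0.744 and 0.768 CPM, Hbb-bs at 2.63 and 2.36 against 5.69 and 5.81 CPM, and Slc4a1, the band 3 anion exchanger of the red cell membrane, at 0.081 and 0.0811 against 0.433 and 0.633 CPM. Slc4a1 had 11 and 9 counts in the home cage and 57 and 89 after defeat, 6.53-fold higher (log2 SE 0.359, edgeR adjusted p = 1.58e-07). How reads shared by the alpha globin genes were divided is not given in the sources used here, so the split between Hba-a1 and Hba-a2 is uncertain. The erythroid enzyme gene Alas2 was listed at 0, but it overlaps Apex2 and Mir3620, and how shared reads were counted is not given. Fech and Bpgm, named after their values were seen, both had a log2 fold change of 0.03. Of 8 tested leukocyte and platelet genes 0 passed and 4 were positive, and of 17 endothelial markers 0 passed and 6 were positive. Whether blood left in the tissue had a part in the globin values was not tested.

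Meningeal fibroblast markers had 10 of 10 tested members positive with a median of 0.20. Their summed level was 27.9 and 38.9 CPM in the home cage and 37.5 and 43.2 CPM after defeat, so the groups overlapped. Fmod, a collagen-binding proteoglycan, was at 2.35 and 3.52 against 3.91 and 5.33 CPM, 1.59-fold higher, and Slc13a4, a sulfate transporter gene on the solute carrier list, at 2.14 and 3.49 against 3.82 and 5.0 CPM, 1.58-fold higher. Both lost their call without home-cage replicate 1 (adjusted p = 0.152 and 0.267) or defeat replicate 2 (adjusted p = 0.763 and 0.619), and with DESeq2 (adjusted p = 0.124 and 1). The part of meningeal tissue in these values was not tested.

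Among the 28 genes called lower, those at the highest levels moved with an annotated ribosomal RNA locus. CT010467.1 (chr17:39846353-39848827), of rRNA type in GENCODE M21, was at 702 and 1340 CPM in home-cage replicates 1 and 2 and at 490 and 119 CPM in defeat replicates 1 and 2, on a scale set over all 8 libraries. Zc3h7a, a zinc finger protein gene, was at 539 and 1120 against 369 and 110 CPM, and Cdk8, the kinase of the Mediator complex, at 238 and 333 against 156 and 95.1 CPM. Lars2, the mitochondrial leucyl-tRNA synthetase gene, was at 67.9 and 81.0 against 48.6 and 29.9 CPM. The order of the libraries was the same in all of these: home cage 2, home cage 1, defeat 1, defeat 2. That order was shared by 14 of the 28 lower genes, by 5.43% of all tested genes and by 31.1% of the 3145 tested genes with both defeat libraries below both home-cage ones. In NAc the same RNAs were low in cocaine replicate 1. There CT010467.1 was at 127 CPM against 867 in replicate 2 and 1010 and 977 in the home cage, and Zc3h7a was at 113 against 763, 733 and 722 CPM. The scarce microRNA-type models Gm25911 (0.0144 against 0.126, 0.158 and 0.159 CPM) and Gm24245 (0.00721 against 0.14, 0.124 and 0.094 CPM) were low there too. The set was put together after its values were seen, and the part of leftover ribosomal RNA in these calls was not tested. DESeq2 called none of CT010467.1 (adjusted p = 1), Zc3h7a (1), Cdk8 (0.454) and Lars2 (0.662).

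**Figure D4:**
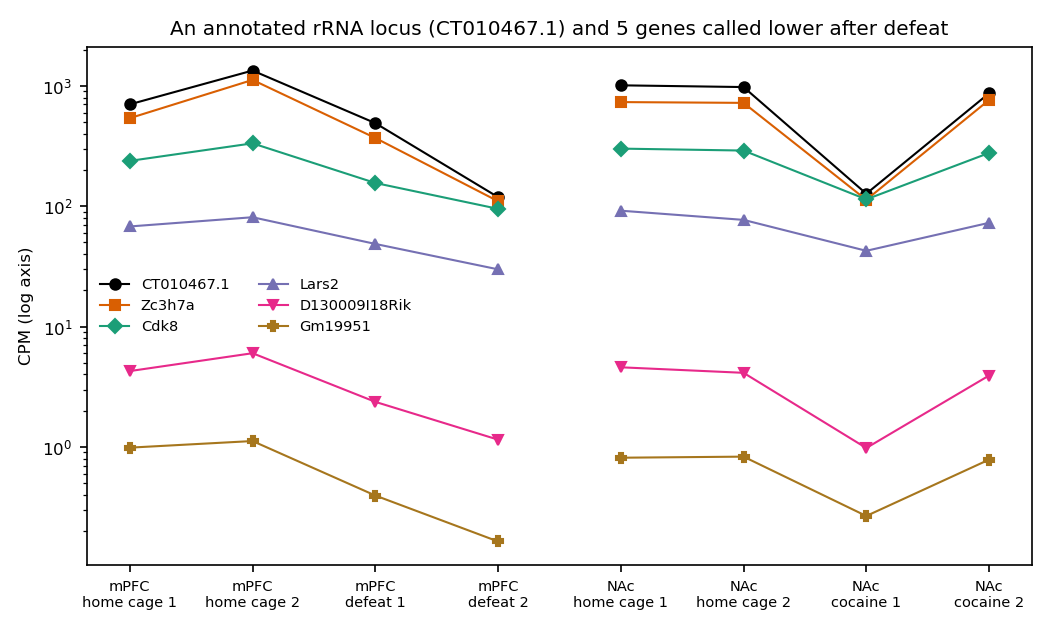
CPM on a log axis (y) of CT010467.1 and 5 genes called lower after defeat in each of the 8 libraries (x), with lines joining the points of 1 gene only to guide the eye. In mPFC all 6 fall to their lowest level in defeat replicate 2, and in NAc to their lowest in cocaine replicate 1.

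Of the 10 genes lower by more than 2-fold, CT010467.1, Zc3h7a and Cdk8 were abundant and the other 7 scarce, and 6 of the 28 lower genes had a mean under 1 CPM in both groups. The provisional lincRNA genes D130009I18Rik (4.26 and 5.99 against 2.37 and 1.14 CPM, 2.92-fold lower) and Gm19951 (0.986 and 1.12 against 0.395 and 0.163 CPM, 3.79-fold lower) passed in each fit without 1 library. DESeq2 called Gm19951 (adjusted p = 0.000315) and did not call D130009I18Rik (adjusted p = 0.446). Both are drawn with the ribosomal RNA locus in the plot over 8 libraries. Prdm12, a zinc finger regulator gene of sensory neurons, was at 0.567 and 0.631 against 0.342 and 0.199 CPM, 2.22-fold lower, and lost its call without home-cage replicate 2 or defeat replicate 2 (adjusted p = 0.0872 and 1) and with DESeq2 (adjusted p = 0.521). The remaining 4 were the microRNA-type models Gm25911 and Gm24245 and, named after their values were seen, Trim50 (25 and 18 counts against 8 and 4) and Gm47391 (82 and 72 against 46 and 37). Of these 4, Gm25911 missed the threshold without defeat replicate 2 (adjusted p = 0.135) and the other 3 in every fit without 1 library.

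The other lower genes named here changed by less than 2-fold. The linker histone genes H1f4 (28.0 and 32.2 against 24.0 and 21.5 CPM, 1.32-fold lower) and H1f3 (7.86 and 10.7 against 7.27 and 6.21 CPM, 1.37-fold lower) were the only lower genes on a list, 2 of 49 clustered histone genes whose median was 0.01. H1f4 lost its call without defeat replicate 2 (adjusted p = 0.63), and H1f3 without home-cage replicate 2 or defeat replicate 2 (adjusted p = 0.676 and 0.848) or with DESeq2 (adjusted p = 0.231). Aldh1a1, a retinaldehyde dehydrogenase that makes retinoic acid, was at 17.6 and 17.0 against 13.2 and 12.7 CPM, 1.33-fold lower (log2 SE 0.0877, edgeR adjusted p = 0.00339). It missed the threshold without defeat replicate 1 or 2 (adjusted p = 0.0652 and 0.33). Cby3, at 3.11 and 3.10 against 1.88 and 1.87 CPM, fell 1.66-fold (log2 SE 0.137, edgeR adjusted p = 0.000458) and passed in each fit without 1 library and in DESeq2 (adjusted p = 0.00924). Opn4, the melanopsin gene (2.85 and 2.78 against 1.94 and 1.86 CPM), and Bub1b, a spindle checkpoint kinase gene (2.78 and 2.7 against 1.83 and 1.66 CPM), passed in edgeR and missed it in DESeq2 (adjusted p = 0.215 and 0.0819). Without defeat replicate 2 they missed it as well (adjusted p = 0.457 and 0.328), and Opn4 also without home-cage replicate 1 or defeat replicate 1 (adjusted p = 0.0613 and 0.119). Cstad, at 8.30 and 7.13 against 5.64 and 4.39 CPM, was 1.54-fold lower and lost its call without defeat replicate 2 (adjusted p = 0.31). The calls of Frmpd2 (2.22 and 1.77 against 1.29 and 1.2 CPM), Thbs4 (2.5 and 1.28 against 1.21 and 1.15 CPM) and Vwa5b1 (4.98 and 8.27 against 5.22 and 4.02 CPM, with overlapping groups) were lost with DESeq2 (adjusted p = 0.284, 0.789 and 1) and in 3, 3 and 2 of the 4 fits without 1 library.

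Among the rising genes the larger changes stood mostly at shorter genes. The genes called higher had a median span of 15260 bases in GENCODE M21 against 23699 for all tested genes with a match, and 28.3% of them were shorter than 5 kb against 13.2%. Within the rising genes the median log2 fold change was 1.18 for the 28 under 5 kb, 0.67 for the 32 of 5 to 20 kb, 0.55 for the 26 of 20 to 50 kb and 0.40 for the 13 above 50 kb. The shorter genes also stood at lower home-cage levels, with median CPM of 5.08, 10.3, 16.1 and 29.4 in the 4 classes, and the 2 properties were not separated. Over all tested genes the median fold change per length class stayed between -0.012 and 0.005. A span runs from the first to the last base of any annotated transcript, so Dusp1 counts as 56539 bases because of 1 long transcript beside its short ones. These are descriptions of genes chosen by the same contrast and carry no test.

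**Figure D5:**
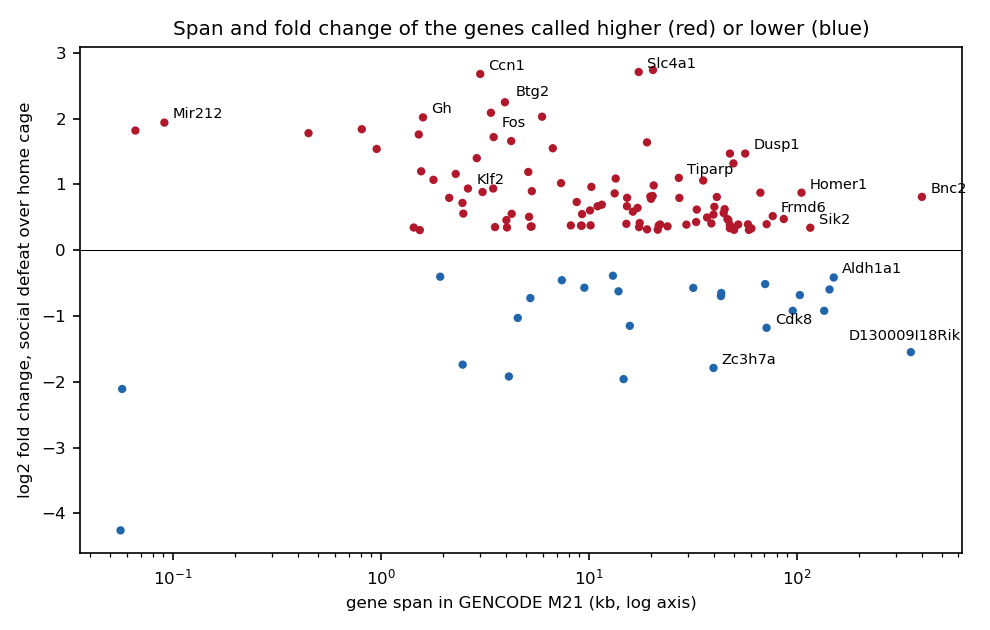
Log2 fold change after social defeat (y) against gene span in kb on a log axis (x) for the called genes with a GENCODE match, red higher and blue lower. The rising genes above 2-fold are mostly short, 16 of them under 5 kb, with Homer1 and Bnc2 as examples of long genes that rose by less.

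Set against the response of NAc to cocaine conditioning, which has its own control libraries, the rising genes were largely positive there too. Of the 99, 87 were positive in NAc (87.9%, against 47.2% of all tested genes). Their median log2 fold change was 0.23 in NAc and 0.67 in mPFC. These genes were picked for their values in mPFC, which raises the mPFC median, so the 2 medians do not compare the sizes of the responses. Standard errors were larger in NAc, with medians of 0.161 and 0.088 for these genes. Ccn1, Fos and Npas4 had log2 fold changes of 1.92, 1.73 and 1.69 in NAc, and Homer1, Trib1 and Frmd6 had 0.15, 0.06 and 0.05. The difference between the responses was tested in 1 model of all 8 libraries and passed for 0 of 18783 genes in edgeR, with 415 at an unadjusted p under 0.05 and 2 in DESeq2. With the NAc replicate number as a block, 3 genes (0.016%) passed: Hba-a1, Ovca2 and Rspo2, of which Rspo2 was picked once values were known. Region and treatment differ together between these contrasts and cannot be told apart. In that 8-library fit, which shares its spread with NAc, the defeat contrast itself passed 5 genes: Npas4, Dusp1, Egr2, Fosb and Ovca2.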

How the data were processed

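Total RNA was measured in mPFC and NAc, and the 4 mPFC libraries were analysed here. Per the submitters' processing notes, STAR 2.7.1a aligned the reads to mm10 and featureCounts assigned them to genes. What the authors deposited were unnormalized counts by gene symbol. Which featureCounts version, annotation and options for strand, introns and multi-mapping reads they used is not given in the sources used here. Counts on introns or overlapping genes, if kept, add to a gene's value.

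Groups came from the treatment labels. The labels number the mPFC libraries WT1 to WT4 in a single run, so replicates 1 and 2 of a group follow the order of the samples and pair nothing. In R 4.3.3 with edgeR 4.0.16, filterByExpr, TMM factors, glmQLFit and glmQLFTest were run on the 4 mPFC libraries, with Benjamini-Hochberg adjustment over 18027 genes and a threshold of 0.05. CPM are edgeR's counts per common library size, with TMM factors, and their pairs are given as home-cage replicates 1 and 2, then defeat replicates 1 and 2. SE are on the log2 scale. A list's median and counts are descriptions. An exact permutation test of 2 against 2 cannot give a two-sided p under 0.33, so none was used. Counting intervals are exact binomial at 95% and cover counting error only. The difference from NAc was a contrast over all 8 libraries, fitted to both tables joined by symbol. DESeq2 1.42.0, limma 3.58.1 (voom), 2 other scalings, 2 other filters and fits without each library were alternatives. The fits were tested on simulated data.

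Positions, spans and types came from GENCODE M21 (GRCm38), which matched 33375 of 33885 symbols, and promoter and microRNA sequences from RefSeq (GRCm38.p6). Among called genes whose groups did not overlap, with a mean of at least 1 CPM in a group and provisional models set aside, the 12 with the largest change in each direction were picked for naming. Each list's called members, or else the member with the smallest p, the 12 smallest p on no list in each direction outside provisional models, and up to 3 provisional models per direction were added. The smallest-p members of lists without a call are named for some lists only, and 1 of them is not reported here. The genes, the 63 lists and the naming rule were chosen with earlier results of these data known. Span classes, library orders and neighbours were examined after the first values were seen.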

Additional observations from a re-analysis of the deposited data

Results flagged for a closer look

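For Hba-a1, an alpha globin gene, and Ovca2 the response to defeat in mPFC differed from the response to cocaine conditioning in NAc by a test of the difference itself. With the NAc replicate number as a block, the difference on the log2 scale was 1.23 for Hba-a1 (SE 0.118, edgeR adjusted p = 0.00121) and 0.93 for Ovca2 (SE 0.127, edgeR adjusted p = 0.0244). Without the block neither passed in edgeR (adjusted p = 1 for both), and DESeq2 passed both. The log2 fold changes in mPFC and NAc were 1.54 and 0.33 for Hba-a1 and 1.40 and 0.47 for Ovca2. Ovca2 overlaps 1700016P03Rik, as Mir212 and Mir132 do, and their shared reads cannot be told apart.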

How the results depend on the processing

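No named gene changed direction: of 1418 pairs of a named gene and an alternative, 1185 stayed on the same side of the threshold, 211 lost it and 22 gained it. Against 99 higher and 28 lower genes, and 29 and 10 beyond 2-fold, leaving out 1 library gave from 50 to 166 higher, 8 to 72 lower, 22 to 36 higher beyond 2-fold and 4 to 12 lower beyond 2-fold. The lowest count of higher genes came without defeat replicate 2 (49 of the 50 shared with the 99) and the highest without home-cage replicate 1. A minimum of 1 CPM in 2 libraries left 4 genes lower beyond 2-fold. DESeq2 called 7 lower, 1 of them beyond 2-fold, and the fit to all 8 libraries 5 higher, 5 of them beyond 2-fold, with 0 lower and 0 lower beyond 2-fold. The cause was not tested. For the difference from NAc, 0 genes passed, against 3 with the NAc number as a replicate block, 2 in DESeq2 and from 0 to 1 when 1 library was left out (Lgr6, without NAc home-cage replicate 1). No paired analysis was possible in mPFC because the labels give its groups no shared replicate number. The median span of the lower genes was 39802 bases over protein-coding genes alone, against 15759. Depth limits the genes under 1 CPM in both groups, 9 of the 99 and 6 of the 28, and 2 libraries per group limit every estimate of spread.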

Other observations

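Several structural and regulatory lists not described so far held no called member, where 0.704% of all tested genes were called. Of 44 chromatin modifier genes 0 passed, with a median log2 fold change of 0.00, and the smallest p belonged to Kdm7a, a histone demethylase gene, at 78.0 and 71.4 CPM in the home cage and 81.9 and 91.1 CPM after defeat (edgeR adjusted p = 0.352). Among 43 collagen genes 31 were negative and 0 passed, with a median of -0.07, and Col6a1 was at 52.7 and 54.4 against 47.9 and 42.9 CPM (edgeR adjusted p = 0.222). Of 68 axon guidance genes 0 passed, with a median of -0.01. No member of 35 glycolysis and hypoxia genes (median 0.03) or 29 sterol and lipid synthesis genes (-0.01) passed. The glucose transporter gene Slc2a1 was at 58.1 and 62.8 against 68.0 and 71.9 CPM (edgeR adjusted p = 0.352).

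The next 2 lists are set beside the 0.549% of all tested genes that were called higher. Of 203 tested ubiquitin ligase adaptor and F-box genes 2 rose, and no excess is read from so few calls. Besides Fbxo33 this was Siah2, an oxygen-sensitive ubiquitin ligase, at 20.4 and 22.5 against 26.6 and 28.1 CPM, 1.28-fold higher. Its call was lost without home-cage replicate 1, defeat replicate 1 or defeat replicate 2 (adjusted p = 0.0832, 0.0967 and 0.732). Of 33 cadherin and protocadherin genes Cdh1 rose, at 0.42 and 0.739 against 0.828 and 1.26 CPM, and lost its call without home-cage replicate 1 or defeat replicate 2 (adjusted p = 0.384 and 1) and with DESeq2 (adjusted p = 0.714).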
